A study of Mus musculus with 24 samples.

Results

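The genes described are 10 of the 55487 listed for C2C12 myotubes. They were taken by name from the ligands of the epidermal growth factor (EGF) type, their receptors and the feedback inhibitors of the receptors. They are the 6 ligand genes Hbegf, Areg, Ereg, Tgfa, Btc and Nrg1, the 3 receptor genes Egfr, Erbb2 and Erbb3, and Errfi1. C2C12 is an established line of mouse skeletal muscle myoblasts that fuse into myotubes in culture, and all 24 libraries came from wild-type (WT) cells differentiated under 5 % O2 and labelled day 5. The myotubes then spent 2 h in 5 % or 1 % O2 and were harvested either at rest (5CTRL and 1CTRL) or after electrical stimulation at the same O2 level (5STIM and 1STIM), with 6 cultures in each group. By the authors' account, stimulation was given in short bouts after this exposure, and the cells were taken immediately after it. They also changed the medium before and after stimulating, and the part of this change in the results was not tested. The culture of a single line holds no nerve, vessel or blood cells, and a layer of myotubes keeps some unfused cells.

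EGF-type ligands are made as precursors anchored in the plasma membrane, and proteases of the ADAM group cut them free. Heparin-binding EGF (Hbegf), amphiregulin (Areg), epiregulin (Ereg), transforming growth factor alpha (Tgfa) and betacellulin (Btc) bind the EGF receptor, some of them also ERBB4, whereas neuregulin 1 (Nrg1) binds ERBB3 and ERBB4 and is best known in muscle as a signal from the motor nerve. The receptors act in pairs. ERBB2 has no known ligand and serves as the preferred partner, and ERBB3 binds ligand but has a weak kinase. Errfi1 encodes MIG6, a protein that is made after receptor activation and binds and blocks the kinase of EGFR and ERBB2.

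Libraries held 26541858 to 28173745 reads. Every value below is a normalized count, that is, an estimated read count divided by the size factor of its library. Differences are of log2 values after adding 1 to each normalized count, so those of genes with few reads come out too small, and are given with the standard error (SE) and the Benjamini-Hochberg adjusted p of one limma fit over the 14541 genes that reached 10 in at least 6 libraries. A gene is said to rise or fall where its adjusted p is under 0.05. The size factors lay between 0.955 and 0.992 in the 5 % O2 groups and between 1.02 and 1.05 in the 1 % O2 groups. Rescaling the libraries to the same total raised the share of calls that were higher from 49.0 % to 62.7 % in 1CTRL against 5CTRL, from 44.0 % to 62.1 % in 5STIM against 5CTRL, from 51.4 % to 62.4 % in 1STIM against 1CTRL and from 50.4 % to 63.2 % in 1STIM against 5STIM, while the median of all genes moved by at most 0.08. Replicate 1 of 1CTRL stood apart from its group, with a root mean square log2 deviation of 0.447 against 0.298 to 0.354 in the other 23 libraries. All 8 myotube markers (Myog, Mymk, Myh3, Myh8, Ckm, Acta1, Tnnt3 and Actn2) had a mean of at least 10 in every group.

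Of the 10 genes, 9 passed the filter on low values and Tgfa did not. In 1CTRL against 5CTRL, Erbb3 rose and Hbegf, Areg, Ereg, Erbb2 and Errfi1 fell, so that 1 of the 9 was higher and 5 were lower, where 29.4 % of all genes tested were higher and 30.5 % were lower. In 5STIM against 5CTRL, Ereg, Nrg1 and Egfr rose and Hbegf and Errfi1 fell, against a background of 9.44 % higher and 12.0 % lower. In 1STIM against 1CTRL, Areg, Ereg and Nrg1 rose and Hbegf, Erbb3 and Errfi1 fell, against 11.5 % higher and 10.8 % lower. In 1STIM against 5STIM, Erbb3 rose and Hbegf, Areg, Ereg, Egfr, Erbb2 and Errfi1 fell, against 29.0 % higher and 28.4 % lower. The median difference of the 9 genes was −0.43, 0.03, 0.03 and −0.26 in these 4 comparisons, and that of all genes tested was between −0.01 and 0.00. Each group enters 2 of the comparisons, so they are not independent of each other. Without replicate 1 of 1CTRL, all 9 genes tested passed the threshold in 1CTRL against 5CTRL, with Btc (adjusted p = 0.0461), Nrg1 (0.0129) and Egfr (0.0274) added to the 6, and 61.6 % of all genes tested were called in that fit.

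**Figure D1:**
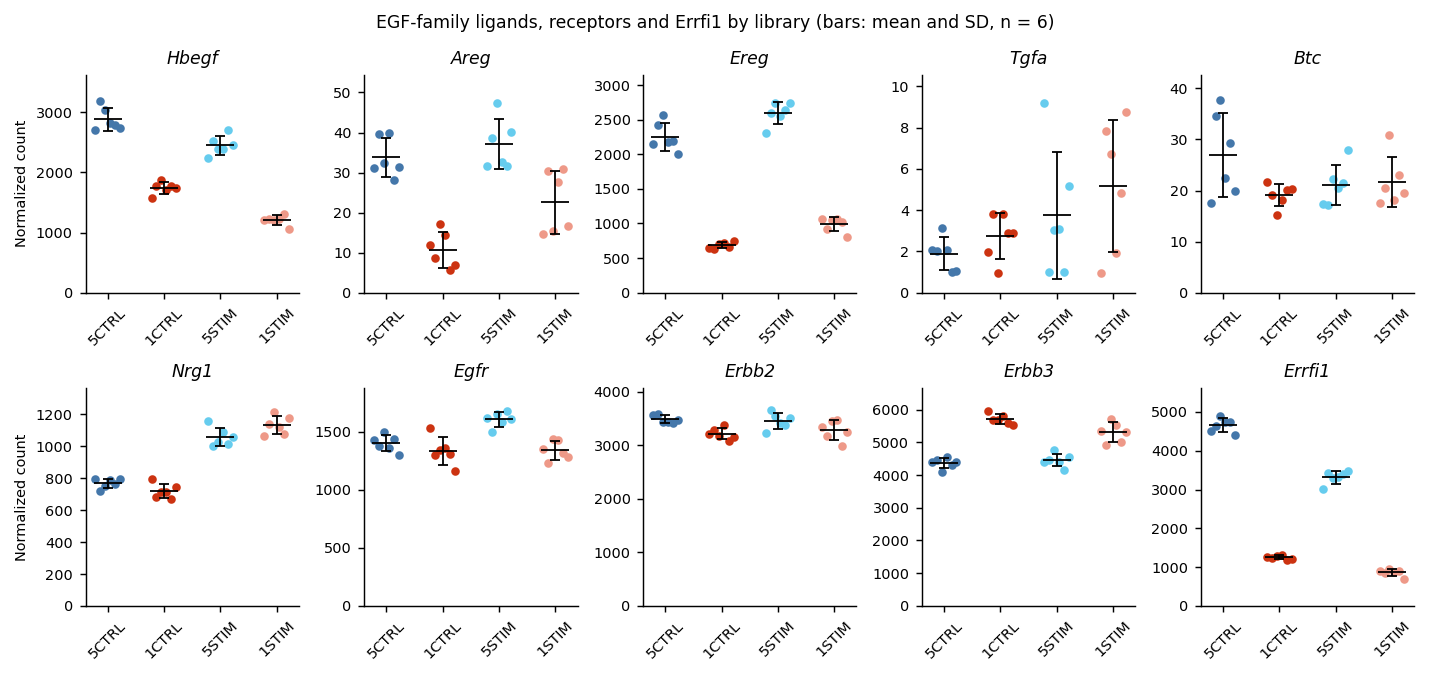
Normalized counts of the 10 genes by library, with 1 point for each of the 6 cultures of a group and bars for the mean and SD; each panel has its own vertical axis from 0. Errfi1 and Hbegf fall into 4 groups that do not overlap, Ereg is lower in every 1 % O2 library than in every 5 % O2 library, and Nrg1 is higher in every stimulated library than in every library at rest.

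Hbegf lies at chr18:36504927-36515805 (GRCm38). Its normalized counts ran from 2711 over a median of 2809 to 3193 in 5CTRL and from 1569 over 1755 to 1879 in 1CTRL. They ran from 2241 over 2428 to 2703 in 5STIM and from 1066 over 1217 to 1313 in 1STIM. The 4 groups did not overlap, in the order 5CTRL, 5STIM, 1CTRL and 1STIM, although the lowest 5CTRL library was close to the highest 5STIM library. The mean fell from 2882 ± 190 to 1739.7 ± 102 (SD, n = 6) at rest in 1 % O2, which is 60.4 % of the 5CTRL level (log2 difference −0.73, SE 0.05, adjusted p = 1.60e-14, limma). Stimulation lowered it to 85.1 % of the resting level under 5 % O2 (−0.23, SE 0.05, adjusted p = 0.000461) and to 69.4 % under 1 % O2 (−0.53, SE 0.05, adjusted p = 2.51e-10). The response to stimulation under 1 % O2 was thus more negative than that under 5 % O2, and the interaction term was −0.29 (SE 0.07, adjusted p = 0.00361). For this term, 5.88 % of all genes tested were called higher and 5.43 % lower, and of the 9 genes 2 were higher and 1 was lower. Among stimulated cultures, 1STIM held 49.2 % of the 5STIM level (−1.02, adjusted p = 4.35e-18).

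In bulk RNA of this kind, fewer cells of a type and less RNA per cell cannot be told apart. The summed counts of 4 markers of undifferentiated myoblasts or reserve cells (Pax7, Myf5, Myod1 and Cd34) moved with oxygen in the same direction as Hbegf, from 5682 to 6305 in 5CTRL and 5372 to 5925 in 5STIM to between 3865 and 4599 in 1CTRL and between 3510 and 4065 in 1STIM. The summed myotube markers ran from 406469 to 450342 in 5CTRL, from 350618 to 391863 in 1CTRL, from 364935 to 425627 in 5STIM and from 346910 to 384821 in 1STIM. They were lower in every 1 % O2 library than in every 5CTRL library. The 3 fibroblast markers (Pdgfra, Dpt and Lum) summed to 312 to 351 in 5CTRL, 204 to 266 in 1CTRL, 316 to 404 in 5STIM and 285 to 345 in 1STIM. The 3 markers of dividing cells (Mki67, Top2a and Ccnb1) summed to 2741 to 3181 in 5CTRL, 3046 to 5050 in 1CTRL, 3071 to 3642 in 5STIM and 3286 to 4186 in 1STIM. Each of these sums mainly follows its most abundant genes, so it does not show how each marker moved. The part of these cell types in the results on oxygen and stimulation was not tested. The sums of the 4 epithelial markers (Epcam, Krt5, Krt14 and Cdh1) were 225 to 295, 180 to 210, 270 to 321 and 207 to 277 in the same order. Of these 4, Krt14 and Cdh1 passed the filter on low values, and 2 had a mean of at least 10 in every group. Epcam was at 0 in all libraries of 5CTRL, 1CTRL and 5STIM, and Krt5 was at 0 in all of 5CTRL, 1CTRL and 1STIM. The 3 leukocyte markers (Ptprc, Cd68 and Adgre1) summed to 27.6 to 70.5 over all libraries, of which Cd68, a lysosomal protein, made up nearly all with group means of 40.0 to 47.1, while Adgre1 was at 0 in 5CTRL, 1CTRL and 1STIM and Ptprc was at 0 in 5STIM. The 3 endothelial markers (Pecam1, Cdh5 and Kdr) summed to 3.14 to 15.2.

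Ereg, a ligand of low affinity and long action, lies at chr5:91074622-91093646 on the plus strand, and changed most with oxygen among the abundant ligands. Its counts ran from 2000 over a median of 2185 to 2570 in 5CTRL and from 636 over 687 to 752 in 1CTRL. After stimulation they ran from 2305 over 2621 to 2744 in 5STIM and from 806 over 1039 to 1072 in 1STIM. Every 1 % O2 library lay below every 5 % O2 library, the 5CTRL and 5STIM ranges overlapped, and the 1CTRL and 1STIM ranges did not. At rest in 1 % O2 the level was 30.5 % of that in 5 % O2 (log2 difference −1.71, SE 0.07, adjusted p = 2.67e-17, limma), and after stimulation it was 38.1 % (−1.40, adjusted p = 2.16e-15). Stimulation raised Ereg by 0.21 under 5 % O2 (adjusted p = 0.0270) and by 0.52 under 1 % O2 (adjusted p = 1.43e-06). The interaction was 0.31 (SE 0.10, adjusted p = 0.0336), which was 0.29 with adjusted p = 0.0508 without replicate 1 of 1CTRL, the adjusted p running from 0.00659 to 0.0508 over 8 alternatives. The antisense gene Gm19610 covers 3.42 % of the exon bases of Ereg on the opposite strand. Because the counting did not use the strand, reads there were not assigned by strand. Gm19610 had a mean of 4.75.

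Areg, a ligand better known from epithelium and from regulatory T cells in injured muscle, lies close by at chr5:91139599-91148432 on the same strand and was present at a low level and rests on 67 to 218 reads a group. Its counts ran from 28.2 over a median of 31.9 to 39.9 in 5CTRL and from 5.76 over 10.2 to 17.1 in 1CTRL. They ran from 31.7 over 35.6 to 47.5 in 5STIM and from 14.6 over 22.1 to 30.8 in 1STIM. The 1CTRL libraries lay below all 5CTRL libraries, 1STIM lay below all 5STIM libraries, and 1STIM overlapped both 1CTRL and 5CTRL. The level fell to 31.8 % at rest in 1 % O2 (log2 difference −1.64, SE 0.22, adjusted p = 9.41e-08, limma). Stimulation under 1 % O2 raised it to 210 % of 1CTRL (1.02, adjusted p = 0.000679), while the difference under 5 % O2 was 0.12 (adjusted p = 0.748). The difference of these responses was 0.90 (SE 0.32, adjusted p = 0.0604), and without replicate 1 of 1CTRL it was 0.94 (adjusted p = 0.0405), within a range of 0.0405 to 0.11 over 8 alternatives. With a pseudocount of 10 in place of 1, the response under 1 % O2 was 0.64 and the difference of the responses was 0.54. Among stimulated cultures, 1STIM held 60.9 % of the 5STIM level (−0.74, adjusted p = 0.00472).

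The promoters of Areg and Errfi1, which with Ereg had the lowest shares of their 5CTRL level in 1CTRL, are shown because both hold the same 8-base match to the cyclic AMP response element, TGACGTCA, printed in capitals. Sequences are the 250 bases before the annotated start in RefSeq (GRCm38.p6), 5′ to 3′ on the plus strand, and positions count back from −1 at the base before the start.
Areg, chr5:91139349-91139598: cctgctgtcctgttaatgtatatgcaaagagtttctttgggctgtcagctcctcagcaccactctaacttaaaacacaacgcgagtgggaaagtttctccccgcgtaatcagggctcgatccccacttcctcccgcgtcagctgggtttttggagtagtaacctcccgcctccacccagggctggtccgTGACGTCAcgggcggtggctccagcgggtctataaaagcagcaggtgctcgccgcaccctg
Errfi1, chr4:150854820-150855069: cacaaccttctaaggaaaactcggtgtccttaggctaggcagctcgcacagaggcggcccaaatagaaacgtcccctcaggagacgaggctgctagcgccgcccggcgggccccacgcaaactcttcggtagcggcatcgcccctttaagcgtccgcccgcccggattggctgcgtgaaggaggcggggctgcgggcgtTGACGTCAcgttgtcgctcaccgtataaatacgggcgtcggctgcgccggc

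The match began at −61 in Areg and at −51 in this Errfi1 promoter, which belongs to the second of 2 starts listed for Errfi1 and lies in the first intron of the longer gene model. The first Errfi1 start and the promoters of Tgfa, Btc, Egfr and Erbb2 held no match, and Hbegf, Ereg, Nrg1 and Erbb3 had no entry in the table. Of all 32851 promoters of this length, 1.55 % held TGACGTCA. The core of the hypoxia response element, ACGTG, was searched on both strands and was found in 16.6 % of all promoters. The Errfi1 promoter shown held 1 match on the reverse strand at −45, which shares bases with the TGACGTCA match, and the Areg promoter held none. The AP-1 site TGANTCA, found in 6.75 % of all promoters, and the CArG box of serum response factor, found in 1.47 %, had no match in the 7 promoters listed for 6 of the 10 genes. These motifs were chosen after the values were seen, and a match of letters says nothing on binding.

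The remaining EGFR ligands of this set, Tgfa and Btc, had low counts. Egf is described below with the other genes of the pathway. The means of Tgfa (chr6:86195223-86275719) were 1.89 (5CTRL), 2.73 (1CTRL), 3.75 (5STIM) and 5.17 (1STIM), and its highest library reached 9.19. In a fit without the filter its differences lay between 0.35 and 0.57 in the 4 comparisons of groups, and no adjusted p was below 0.530, so no change was detectable at this depth. Btc (chr5:91357261-91402994) had 26.9 ± 8.20 in 5CTRL and 19.1 ± 2.23 in 1CTRL, then 21.1 ± 3.91 in 5STIM and 21.6 ± 4.92 in 1STIM (SD, n = 6), with overlap between all groups. Its difference at rest was −0.43 (SE 0.19, adjusted p = 0.0510, limma), and 4 of 9 alternatives put it past the threshold, the adjusted p running from 0.0309 to 0.105.

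Nrg1 (chr8:31814551-32884029), the ligand of ERBB3 in this set, moved with stimulation. Its counts ran from 721 over a median of 775 to 794 in 5CTRL and from 669 over 714 to 795 in 1CTRL. They ran from 1003 over 1042 to 1158 in 5STIM and from 1066 over 1130 to 1215 in 1STIM. No stimulated library overlapped a library at rest, while the O2 levels overlapped within each of these states. Stimulation raised Nrg1 to 138 % under 5 % O2 (log2 difference 0.46, SE 0.04, adjusted p = 4.76e-10, limma) and to 157 % under 1 % O2 (0.65, SE 0.04, adjusted p = 7.11e-14). The interaction was 0.19 (SE 0.06, adjusted p = 0.0393). It was lost without the filter (adjusted p = 0.0848) and with libraries rescaled to the same total (adjusted p = 0.0518), and ran from 0.00909 to 0.0848 over 8 alternatives. The oxygen difference was −0.10 at rest (adjusted p = 0.0622) and 0.10 after stimulation (adjusted p = 0.0572), and 2 and 5 of 9 alternatives put these past the threshold. Gm26578, which covers 4.66 % of the exon bases of Nrg1 on the opposite strand, had no read in any library.

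**Figure D2:**
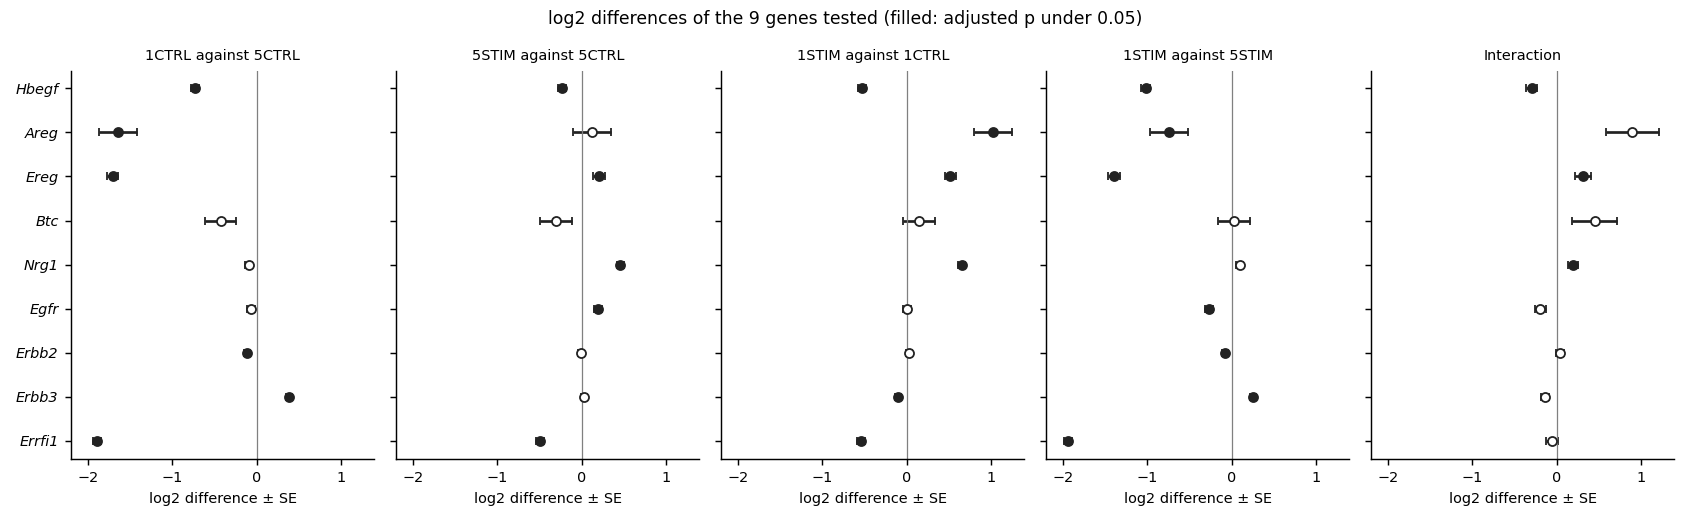
log2 differences with SE for the 9 genes tested in the 4 comparisons of groups and the interaction (response to stimulation under 1 % O2 minus that under 5 % O2), filled where the adjusted p is under 0.05. Errfi1, Ereg and Areg lie farthest to the left at rest in 1 % O2, at −1.89, −1.71 and −1.64, Nrg1 lies to the right after stimulation under both O2 levels, and Hbegf lies to the left in all panels.

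The differences of the receptors were at most 0.38 in size. Erbb3 (chr10:128567523-128589652), the receptor for neuregulin, ran from 4100 over a median of 4401 to 4550 in 5CTRL and from 5519 over 5686 to 5966 in 1CTRL. It ran from 4169 over 4434 to 4760 in 5STIM and from 4918 over 5337 to 5715 in 1STIM. All 1 % O2 libraries lay above all 5 % O2 libraries. The increase in 1 % O2 was 0.38 at rest (SE 0.03, adjusted p = 1.18e-11, limma) and 0.25 after stimulation (adjusted p = 1.51e-07). Stimulation lowered Erbb3 by a small amount under 1 % O2 (−0.11, adjusted p = 0.0241), with ranges that overlapped. That call was lost when libraries were rescaled to the same total (−0.08, adjusted p = 0.0664), the adjusted p running from 0.0207 to 0.0664 over 9 alternatives. Under 5 % O2 the difference was 0.03 (adjusted p = 0.626), and the interaction was −0.13 (adjusted p = 0.0731).

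Egfr (chr11:16752203-16918158), the receptor of the EGF ligands proper, rose with stimulation under 5 % O2. Its counts ran from 1298 over a median of 1406 to 1496 in 5CTRL and from 1498 over 1617 to 1683 in 5STIM. They ran from 1161 over 1329 to 1530 in 1CTRL and from 1230 over 1333 to 1439 in 1STIM. The 5STIM libraries lay just above all those of 5CTRL, and the 1 % O2 groups overlapped each other and 5CTRL, with replicate 1 of 1CTRL at 1530. The response to stimulation was 0.20 under 5 % O2 (SE 0.05, adjusted p = 0.00201, limma) and 0.01 under 1 % O2 (adjusted p = 0.943). The interaction of −0.19 missed the threshold (adjusted p = 0.0598), and its adjusted p ran from 0.0245 to 0.117 over 8 alternatives, 3 of which were past it. After stimulation Egfr was at 83.4 % in 1 % O2 (−0.26, adjusted p = 1.46e-05). At rest the difference was −0.07 (adjusted p = 0.202), and −0.11 (adjusted p = 0.0274) without replicate 1 of 1CTRL, within a range of 0.0274 to 0.868 over 9 alternatives.

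Erbb2 (chr11:98412470-98437716), the receptor without a known ligand, was nearly level, with 3484 ± 74.9 in 5CTRL and 3214 ± 103 in 1CTRL, then 3459 ± 153 in 5STIM and 3277 ± 186 in 1STIM (SD, n = 6). The difference in 1 % O2 was −0.12 at rest (SE 0.03, adjusted p = 0.00377, limma), where the ranges did not overlap, and −0.08 after stimulation (adjusted p = 0.0490), where they did. After rescaling all libraries to one total, the difference was −0.04 at rest (adjusted p = 0.350) and −0.01 after stimulation (adjusted p = 0.845), and the latter was lost in 5 of 9 alternatives, with an adjusted p of 0.0388 to 0.845. The differences with stimulation were −0.01 under 5 % O2 (adjusted p = 0.861) and 0.03 under 1 % O2 (adjusted p = 0.653). Erbb4, the remaining receptor of the family, had at most 1 read in any library.

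Errfi1, the feedback inhibitor, lies at chr4:150853919-150868892 and had the lowest share of its 5CTRL level in 1CTRL of the 10 genes. Its counts ran from 4403 over a median of 4689 to 4900 in 5CTRL and from 1192 over 1248 to 1323 in 1CTRL. They ran from 3008 over 3361 to 3480 in 5STIM and from 707 over 884 to 949 in 1STIM. The 4 groups did not overlap, in the same order as those of Hbegf. In 1 % O2 the level was 26.9 % of that in 5 % O2 at rest (log2 difference −1.89, SE 0.05, adjusted p = 3.44e-25, limma) and 26.0 % after stimulation (−1.95, SE 0.05, adjusted p = 2.26e-25). Stimulation lowered it to 71.3 % under 5 % O2 (−0.49, adjusted p = 1.71e-09) and to 68.9 % under 1 % O2 (−0.54, adjusted p = 1.39e-10). The interaction was −0.05 (SE 0.07, adjusted p = 0.681).

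Levels of different genes were compared per kilobase (kb) of exon, with the length taken over all annotated exons of a gene. Where the transcripts present are shorter than that, the level per kb comes out too low. The shares and the order of genes thus depend on the annotation. The 5 ligands of EGFR in this set summed to 1176 ± 89.8 normalized counts per kb in 5CTRL and 539.9 ± 27.1 in 1CTRL. After stimulation the sum was 1172 ± 64.9 in 5STIM and 514 ± 41.3 in 1STIM (SD, n = 6). Hbegf and Ereg made up nearly all of it. The share of Hbegf was 50.8 % in 5CTRL and 66.6 % in 1CTRL, then 43.3 % in 5STIM and 48.7 % in 1STIM, and that of Ereg was 46.4 %, 30.9 %, 53.7 % and 46.6 %. Areg gave between 1.63 % and 3.60 % on average, Btc between 0.397 % and 0.932 %, and Tgfa at most 0.161 %. Egf was left out of the ligand sum and of these shares. Its mean per kb was 7.07 in 5CTRL and 5.90 in 1CTRL, above the 5.96 and 4.23 of Btc. In 5STIM and 1STIM it was 6.14 and 8.19, above the 4.67 and 4.78 of Btc. The 3 receptors summed to 1519 ± 30.4 per kb in 5CTRL and 1684 ± 47.8 in 1CTRL, then 1547 ± 51.4 in 5STIM and 1630.0 ± 90.1 in 1STIM. Erbb3 was the largest part of that sum, with 47.8 %, 56.3 %, 47.9 % and 54.1 %, followed by Erbb2 with 44.0 %, 36.6 %, 42.9 % and 38.6 %. The share of Egfr was 8.15 % in 5CTRL, 9.19 % in 5STIM and 7.27 % in 1STIM, and was lowest in 1CTRL. Per kb, Errfi1 stood at 1299.5 in 5CTRL and 349 in 1CTRL, and Nrg1 at 74.2 and 69.6.

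**Figure D3:**
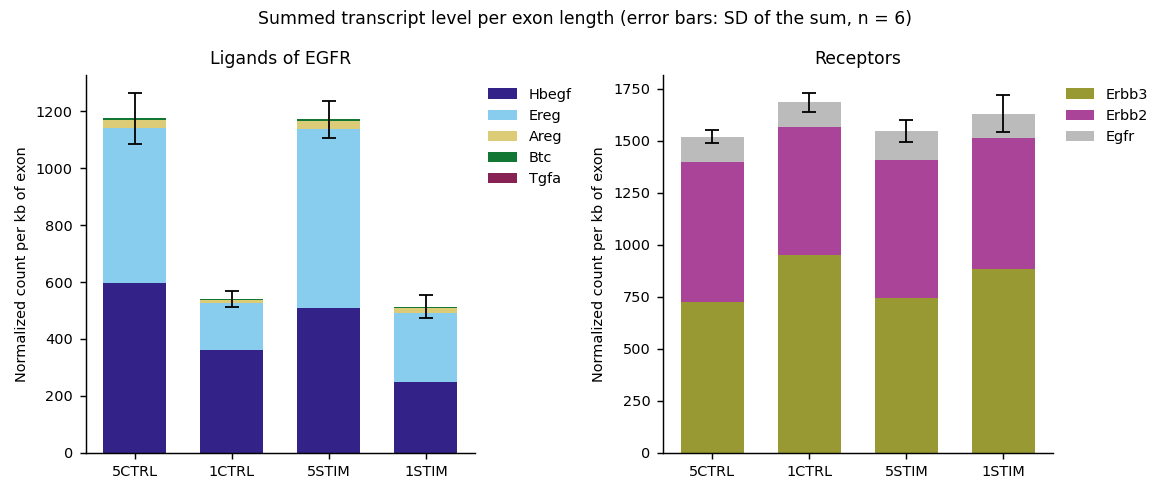
Summed normalized counts per kb of exon of 5 EGFR ligands, without Egf (left), and of the 3 receptors (right). Bars are stacked means with the SD of the sum over 6 cultures. The ligand sum is lower in both 1 % O2 groups, at 539.9 and 514 against 1176 and 1172, and the receptor sum lies between 1519 and 1684 in all 4 groups.

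Other genes of the pathway were taken from lists of 66 genes, of which 62 were tested. In 1CTRL against 5CTRL, 27.4 % of them were higher (17 genes), near the 29.4 % of all genes tested, and 48.4 % were lower (30 genes) where 30.5 % of all genes were. In 1STIM against 5STIM, 29.0 % were higher (18 genes), the same share as over all genes, and 45.2 % were lower (28 genes) where 28.4 % of all genes were. With stimulation, 14 were higher and 10 lower under 5 % O2 (22.6 % and 16.1 %, beside 9.44 % and 12.0 % of all genes), and 16 and 15 under 1 % O2 (25.8 % and 24.2 %, beside 11.5 % and 10.8 %). The interaction called 6 higher and 5 lower (9.68 % and 8.06 %, beside 5.88 % and 5.43 %). The shares over all genes include genes near the filter of 10, where a difference is harder to call. The lists were not matched to all genes by level. Among the other ligands, Nrg3 was at 0 in all libraries, Nrg2 and Epgn stayed below the filter, and Egf and Nrg4 were tested. Egf was named after its values were seen. It had 79.7 ± 11.6 in 5CTRL and 66.5 ± 9.96 in 1CTRL, then 69.2 ± 6.24 in 5STIM and 92.4 ± 9.72 in 1STIM (SD, n = 6). It fell at rest in 1 % O2 (log2 difference −0.26, adjusted p = 0.0482, limma). Among stimulated cultures Egf was higher in 1 % O2 (0.41, adjusted p = 0.00216), where Hbegf, Areg and Ereg were lower. Stimulation raised it under 1 % O2 (0.47, adjusted p = 0.00170), and the difference under 5 % O2 was −0.19 (adjusted p = 0.237). The interaction was 0.67 (adjusted p = 0.00447).

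Of 17 inhibitors of the receptors and of the pathway besides Errfi1, 12 were lower and 2 higher in 1CTRL against 5CTRL, with a median difference of −0.35, and 11 were lower and 2 higher in 1STIM against 5STIM, with a median of −0.25. The share that was lower was 70.6 % and 64.7 %, where 30.5 % and 28.4 % of all genes tested were lower. The Sprouty genes, which encode inhibitors of receptor tyrosine kinase signalling to ERK, were among those with the largest differences. At rest in 1 % O2, Spry2 fell from 857 to 468 (log2 difference −0.87) and Spry4 from 226 to 124 (−0.86), while Spred2, of a related family, rose from 1364 to 2355 (0.79). After stimulation, Spry2 (−0.52) and Spry4 (−0.94) were lower and Spred2 (0.38) was higher in 1 % O2. The receptor phosphatase gene Ptprj and the phosphatase gene Ptpn12 were lower in 1 % O2 at rest (−0.43 and −0.63) and after stimulation (−0.72 and −0.66). Stimulation itself called 5 inhibitors higher and 5 lower under 5 % O2, and 5 higher and 7 lower under 1 % O2, where between 9.44 % and 12.0 % of all genes were called in each direction. Spry1 fell with stimulation from 401 to 175 under 5 % O2 (−1.19) and from 315 to 167 under 1 % O2 (−0.90). Socs5, of the suppressors of cytokine signalling, fell by 0.39 under 5 % O2 and by 0.35 under 1 % O2, and Ptprj rose by 0.20 under 5 % O2. Under 1 % O2, Spry2 rose by 0.46 and Spred2 fell by 0.40 with stimulation. In the interaction, Spred2 (−0.41) and Ptprj (−0.29) were lower and Spry2 (0.35) was higher, with adjusted p between 1.47e-06 and 0.00940 (limma).

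Of 10 genes of ligand shedding and presentation, 3 were higher and 4 lower in both comparisons of oxygen, which is near the 29.4 % and 30.5 % of all genes tested at rest and the 29.0 % and 28.4 % after stimulation. Timp3, an inhibitor of the ligand sheddase ADAM17, fell from 96467 to 38569 at rest (log2 difference −1.32) and differed by −1.14 after stimulation. The inactive rhomboids, which guide ADAM17 to the cell surface, went apart. Rhbdf1 fell from 2423 to 1677 at rest (−0.53) and differed by −0.55 after stimulation, whereas Rhbdf2 rose from 132 to 206 (0.64) and differed by 0.36. Rhbdf2 also rose with stimulation, by 1.08 under 5 % O2 and by 0.80 under 1 % O2, and was the only gene of the list that did so in the limma fit. Adam17 itself fell by 0.10 under 5 % O2 and by 0.11 under 1 % O2, and Adam19 fell by 0.21 and by 0.36, with an interaction of −0.15 (adjusted p = 0.0349).

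Of 23 adaptors and kinases, 10 were higher and 8 lower at rest in 1 % O2 (43.5 % and 34.8 %, beside 29.4 % and 30.5 % of all genes tested), and 9 and 7 after stimulation (39.1 % and 30.4 %, beside 29.0 % and 28.4 %). The shares that were lower are thus near those of all genes. Gab1 and Gab2, which dock PI3-kinase and SHP2 to the receptors, rose by 0.49 and 0.53 at rest and were higher by 0.56 and 0.60 after stimulation. Stimulation called 4 higher and 1 lower under 5 % O2 (17.4 % and 4.35 %, beside 9.44 % and 12.0 % of all genes), and 7 higher and 2 lower under 1 % O2 (30.4 % and 8.70 %, beside 11.5 % and 10.8 %). Gab1 rose with stimulation by 0.52 and 0.59. The MEK gene Map2k1 was higher in 1 % O2 by 0.35 at rest and by 0.20 after stimulation, and the RAF gene Braf by 0.25 and by 0.52. The PI3-kinase genes Pik3cb (0.13 under 5 % and 0.13 under 1 % O2) and Pik3ca (0.10 and 0.25) rose with stimulation under both O2 levels, as did the exchange factor gene Sos1 (0.11 and 0.17). Braf rose by 0.17 under 1 % O2, while its difference under 5 % O2 was −0.10 (adjusted p = 0.226). The interaction was positive for Braf (0.27), Pik3ca (0.15) and Stat3 (0.13), with adjusted p between 0.0180 and 0.0412.

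Of 10 transcripts commonly induced through ERK, 2 were higher and 5 lower in 1CTRL against 5CTRL, with a median of −0.23. In 1STIM against 5STIM, 3 were higher and 6 lower, with a median of −0.58. Of all genes tested, 29.4 % were higher and 30.5 % lower at rest, and 29.0 % and 28.4 % after stimulation. The transcription factor gene Egr1 fell from 3577 to 1367 at rest (log2 difference −1.39) and differed by −1.13 after stimulation. Phlda1 fell from 1224 to 436 at rest (−1.50) and differed by −1.21 after stimulation, and the ERK phosphatase gene Dusp6 differed by −1.08 at rest and by −0.97 after stimulation. Ier3, an early response gene, rose from 510 to 1627 at rest in 1 % O2 (1.67) and differed by 0.42 after stimulation. With stimulation, 4 rose and 2 fell under 5 % O2, where 9.44 % and 12.0 % of all genes did, and 2 rose and 4 fell under 1 % O2, where 11.5 % and 10.8 % did. Ier3 rose by 0.97 under 5 % O2 and fell from 1627 to 1340 under 1 % O2, with an interaction of −1.26 (SE 0.09, adjusted p = 2.43e-10, limma). Myc rose by 0.41 under 5 % O2 and by 0.50 under 1 % O2, Phlda1 fell by 0.67 and by 0.39, and the phosphatase gene Dusp4 rose by 0.17 and by 0.39. The interaction was 0.22 for Dusp4 and −0.43 for Etv5, a target of ERK in many tissues.

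**Figure D4:**
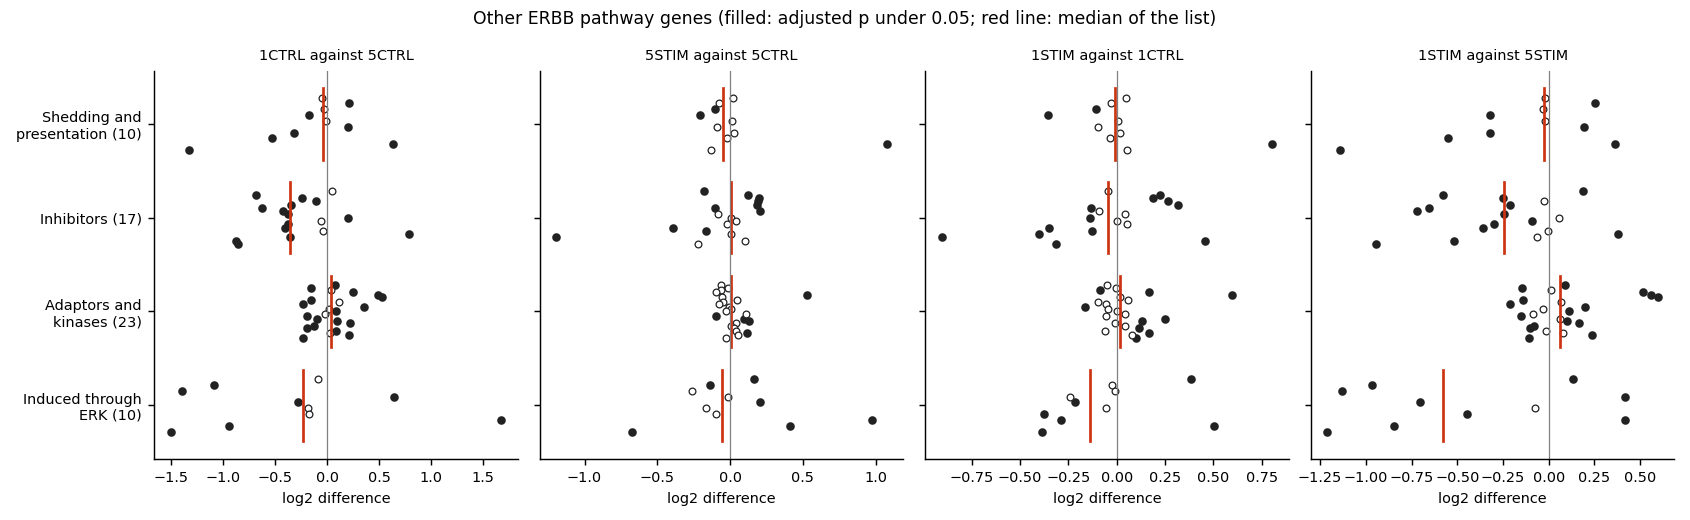
log2 differences of the other pathway genes by list and comparison, with 1 point for each gene tested, filled where the adjusted p is under 0.05, and a red line at the median of the list; each panel has its own horizontal axis. The medians of the inhibitors (−0.35 and −0.25) and of the transcripts induced through ERK (−0.23 and −0.58) lie left of 0 in both comparisons of oxygen, beside medians of all genes tested of 0.00.

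The patterns of single genes over the 24 libraries were compared by Pearson's r of the log2 values, as a description, since libraries of a group share its condition. The genes closest to Errfi1 were Has2 (r = 0.993), Heg1 (r = 0.992) and Mid1 (r = 0.992), and those closest to Ereg were Apobr (r = 0.991), Plekhh2 (r = 0.990) and Il17ra (r = 0.990). Among the genes closest to Hbegf were Sox11 (r = 0.987) and Dusp27 (r = 0.980). Nrg1, which followed stimulation, was closest to Bcl2l11 (r = 0.960), Trim63 (r = 0.958) and Hbp1 (r = 0.956), and Erbb3 to Pacs2 (r = 0.960), Armcx4 (r = 0.957) and Fam117b (r = 0.955). The closest genes were less alike for Areg (Pcbp2, Nup98 and Ppm1a, r = 0.899 to 0.896), Egfr (Zbtb1, Pdzd8 and Gm35019, r = 0.898 to 0.868), Erbb2 (Slc20a2, Gm42793 and Csnk1d, r = 0.814 to 0.803) and Btc (Itgb1bp2, Slc6a17 and Zfp51, r = 0.716 to 0.692).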

How the data were processed

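C2C12 RNA was read as stranded, single-end mRNA libraries. The authors aligned reads to GRCm38 with STAR 2.5.4b after FastQC 0.11.7 and estimated counts per gene with RSEM 1.3.0 at its defaults, so the strand was not used in counting. What the authors deposited is a normalized signal, each count over its library's size factor from DESeq2. A second deposited table of the authors' own comparisons (fold changes, average levels, test statistics, p-values and calls) was not used. Whole counts, called reads here, were recovered from the smallest step of each library, with 100 % of values whole at a tolerance of 0.001. They stem from the RSEM estimates, so they are not direct counts of reads.

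Genes with at least 10 in at least 6 of 24 libraries were tested, 14541 in all. Their log2(value + 1) entered one limma 3.58.1 fit of the 4 groups (R 4.3.3, trend and robust), with Benjamini-Hochberg adjustment over all of them. The script was tested on simulated data. Alternatives were a pseudocount of 10, no filter, the replicate number as a block, a threshold of 0.01, groups compared alone, libraries rescaled to the same total, 1CTRL replicate 1 left out, and edgeR 4.0.16, DESeq2 1.42.0 and voom on whole reads.

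Members, lists, alternatives and tests were chosen with earlier results of these data known. Of each pathway list, in each comparison, up to 3 called genes with the largest differences are named, provided that the higher group had a mean of 100 or more, and for each member the 3 genes of most similar pattern, of which 1 is not reported here. GENCODE M21 (GRCm38) gave coordinates and exon lengths for 55227 (99.5 %) of the genes. No entry was given in the RefSeq table (GRCm38.p6) for 4 members. The chi-square of counts per gene was at least 2.54 in every pair of replicates, so none was a library deposited again, and a gene at 10 rests on about 10 reads.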

Additional observations from a re-analysis of the deposited data

Results flagged for a closer look

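In 3 genes the response to stimulation differed between the O2 levels by the interaction term of limma. Hbegf fell further with stimulation under 1 % O2 than under 5 % O2, by −0.29 (adjusted p = 0.00361). Ereg rose more under 1 % O2, by 0.31 (adjusted p = 0.0336), and so did Nrg1, by 0.19 (adjusted p = 0.0393). The Ereg term lost its call without replicate 1 of 1CTRL (0.29, adjusted p = 0.0508), and the Nrg1 term lost it without the filter on low values (adjusted p = 0.0848) and with libraries rescaled to the same total (adjusted p = 0.0518). No library stood out from its group by Dixon's test in any of the 10 genes.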

How the results depend on the processing

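Of 396 recomputed differences of the 9 genes, 367 kept their direction and their side of the threshold, 10 lost the call and 17 gained it. With libraries rescaled to the same total, 2 differences that were not called changed sign and stayed uncalled, Egfr in 1CTRL against 5CTRL (0.0096, adjusted p = 0.868) and Erbb2 in 5STIM against 5CTRL (0.0199, adjusted p = 0.728). Of 98 recomputed counts of called genes, 96 stayed within 1.5 times of the value given. At an adjusted p under 0.01, the interaction called 1 of the 9 genes in place of 3 and 6 of the other pathway genes in place of 11, where 5.71 % of all genes tested were called. With the replicate number as a block, 7 of the 9 genes were called in 1CTRL against 5CTRL (beside 60.0 % of all genes tested), 5 in 5STIM against 5CTRL (21.9 %), 6 in 1STIM against 1CTRL (22.8 %), 8 in 1STIM against 5STIM (57.4 %) and 4 in the interaction (11.8 %). The labels do not say whether same-numbered cultures were handled together. The correlation of deviations between same-numbered libraries ran from −0.148 to 0.155 over 36 pairs. Of 24 libraries, 5 correlated best with their own number. Such weak correlations cannot settle whether the cultures were paired. Depth limits Tgfa, Btc and Areg, whose differences the pseudocount understates.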
